A study of Mus musculus with 2 samples.

Results

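The proteasome genes described here were the mouse genes whose symbols begin with Psma, Psmb, Psmc, Psmd, Psme or Psmf and a number. The pattern matched 46 of the 38458 gene columns in the deposited tables. Of these, 45 encode subunits or direct regulators of the proteasome. The remaining match, Psmc3ip, encodes a recombination factor that bears the name of a proteasome ATPase it was found to bind, and it was counted as a match but not as a subunit. Names ending in -ps were to be left out, but none occurred.

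The data were single-cell RNA-seq counts from mouse embryonic stem cells (mESCs) of the line DKO741, which was derived from E14 cells by deleting both alleles of Terc, the RNA component of telomerase. The PD100 library holds pre-ALT cells, taken at a labelled passage of 100, when telomeres had no telomerase and were not yet maintained by the recombination-based pathway named ALT (alternative lengthening of telomeres). The PD800 library holds post-ALT cells of that line at a labelled passage of 800. In the study PD stands for population doubling, whereas the sample labels give the same numbers as passages. Both libraries carry the Terc deletion, for which the alleles were targeted in turn with a loxP-flanked neo construct, with G418 and Ganciclovir selection and Cre removal of neo after the first allele. No treatment of the harvested cells was named, no library with intact Terc was analysed here, and DKO741 is 1 targeted line, used for experiments without feeder cells. Each time point had 1 library, so no replicate error could be given and no test was made. Time point and library cannot be told apart, and all intervals are exact 95% intervals that cover counting error only.

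The proteasome degrades proteins that have been tagged with ubiquitin. Its 20S core is a barrel of stacked rings, in which outer rings of α subunits gate the entrance and inner rings of β subunits hold the proteolytic sites. The 19S particle caps the barrel, where it binds the ubiquitin chain, removes it, and unfolds the substrate with a ring of ATPases. Under interferon, cells can exchange the catalytic β subunits for inducible ones and cap the barrel with the PA28 activator instead. Embryonic stem cells are known for high proteasome activity.

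The cell filter of the study, at least 1000 UMIs (unique molecular identifiers, which count captured transcripts) and at most 20% mitochondrial UMIs, left 814 cells of PD100 and 900 cells of PD800, with 1826233 and 2580963 UMIs. The median cell held 2151 and 2701.5 UMIs, and the median mitochondrial share was 1.23% and 4.42%. The libraries had 21 barcodes in common, 8 of them among cells that passed the filter. All 8 stem cell markers examined were detected in both libraries, from 57 to 16145 UMIs in PD100 and from 230 to 24974 in PD800. Fibroblast markers were near 0 (24 and 32 UMIs over 7 genes). Endoderm markers summed to 1037 UMIs in PD100 and 87 in PD800, and 38 PD100 cells and 0 PD800 cells held 5 or more of them. Terc itself had 0 UMIs in both libraries. Without a library with intact Terc to compare, it could not serve as a check of the genotype.

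Levels are given as CPM, the UMIs of a gene out of every 1000000 UMIs of a library. A ratio is PD800 over PD100 on the log2 scale. A gene was used for ratios, and is called a tested gene, where the libraries held at least 50 of its UMIs in total. There were 6984 such genes, and their median log2 ratio was -0.34, a shift that median-of-ratios scaling takes off. Ratios below are therefore given relative to this median, as relative log2 ratios, unless stated otherwise. Of the 46 members, 42 were tested genes. The exceptions were Psmb8, Psmb9, Psmb11 and Psme2b, all with few counts. Psmb8, with 28 UMIs, lay just outside the minimum, and Psma8, with 66, just inside.

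As a whole, the proteasome genes moved little against other genes, but groups within the complex differed. All 8 genes of the α ring were higher in PD800 relative to the median tested gene, the 3 catalytic β genes and both PA28 genes were lower, and 19S genes lay on both sides. All members together held 33840 UMIs in PD100 and 40517 in PD800, which was 18530 CPM (18333 to 18728) and 15698 CPM (15546 to 15852). The median relative log2 ratio over the 42 tested members was 0.01, with 21 above and 21 below the median of all tested genes. By a fold of 1.5, 9 members (21.4%) were higher, against 24.5% of all tested genes, and 4 members (9.52%) were lower, against 20%. Without the median taken off, 3 members were at least 1.5-fold higher, against a background of 15.2%, and 13 were lower, against 36.6%. By a fold of 2, 3 members were higher relative to the median (background 13.9%) and 1 was lower (background 7.79%), and on the plain scale 1 was higher (background 9.22%) and 3 were lower (background 16.9%). The members' shares were below the background in each of these counts. The background was not matched for depth. At least 200 UMIs were held by 39 of the 42 tested members, against 3214 of the 6984 tested genes. Genes with fewer UMIs pass a fold more easily by counting error, and its part in these shares was not tested.

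**Figure D1:**
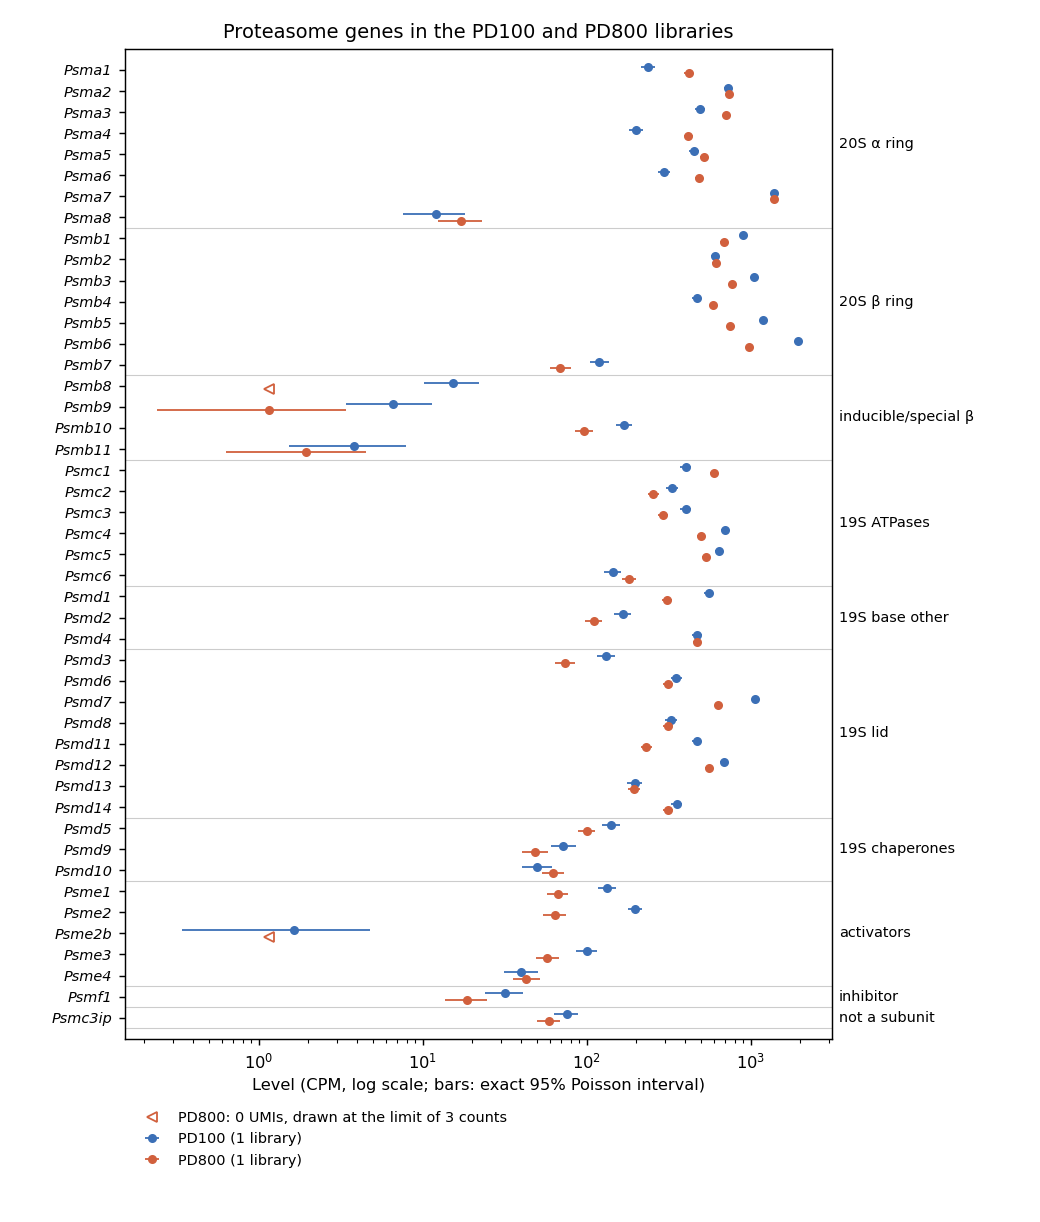
Level of each of the 46 members in CPM on a log axis, 1 point per library, with exact 95% Poisson intervals and members grouped by their place in the complex. The PD800 points lie to the right of PD100 for Psma1, Psma3, Psma4 and Psma6 and to the left for Psmb5, Psmb6, Psme1 and Psme2. Psmb8 and Psme2b had 0 UMIs in PD800 and are drawn at the limit of 3 counts, 1.16 CPM.

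Among the groups set by place in the complex, the α ring was the only one of more than 1 tested gene with all its ratios on the same side of the median. Its 8 genes held 6945 UMIs in PD100 and 12166 in PD800, or 3803 CPM (3714 to 3893) and 4714 CPM (4630 to 4798), a plain log2 ratio of 0.31 (0.27 to 0.35) and a relative one of 0.65 (0.61 to 0.69). All 8 lay above the median of tested genes, as 50% of all tested genes do by construction, and their median relative log2 ratio was 0.86. Of the 8, 5 were at least 1.5-fold higher on this scale (background 24.5%) and 3 at least 2-fold (background 13.9%). The genes differed in the size of their ratio. Psma4, whose product helps to gate the barrel, had 200 CPM in PD100 and 418 CPM in PD800, a relative log2 ratio of 1.40 (1.23 to 1.58), the highest of all members. Psma1 had 238 and 420 CPM (relative log2 ratio 1.16, 0.997 to 1.32). Psma6 had 296 and 487 CPM (1.06, 0.92 to 1.21). Psma3 had 493 and 711 CPM (0.87, 0.75 to 0.99). The intervals of these 4 genes did not overlap with that of Psma7.

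Psma7 had 1388 CPM in PD100 and 1399 CPM in PD800, a relative log2 ratio of 0.35 (0.28 to 0.43), and was the lowest of its ring by ratio. Psma2 had 724 and 740 CPM (0.37, 0.27 to 0.48), and Psma5 451 and 522 CPM (0.55, 0.42 to 0.68). For Psma7 and Psma2 the plain levels were nearly the same in both libraries, and the plain ratio of Psma7 changed sign between alternatives. Psma8, a testis-specific relative of Psma7, had 22 and 44 UMIs, or 12.05 and 17.05 CPM (0.84, 0.07 to 1.65).

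For 39 of the 46 members a promoter window, from 250 bases before to 50 bases after the start site, was found in RefSeq (GRCm38.p6). The windows of 3 α ring genes are printed as examples from different chromosomes that hold CCAAT boxes alone, both motifs, or the NRF1 match alone, among genes at least 1.5-fold higher on the relative scale. They were chosen after their values were seen. Capitals mark CCAAT boxes (CCAAT, on either strand, so also ATTGG) and matches to the site of NRF1, a factor of housekeeping promoters (GCGCA, any 1 base and GCGC, on either strand). The windows are chr7:114276067-114276366 (minus strand) for Psma1, chr12:70974373-70974672 (plus strand) for Psma3 and chr9:54950609-54950908 (plus strand) for Psma4.
Psma1: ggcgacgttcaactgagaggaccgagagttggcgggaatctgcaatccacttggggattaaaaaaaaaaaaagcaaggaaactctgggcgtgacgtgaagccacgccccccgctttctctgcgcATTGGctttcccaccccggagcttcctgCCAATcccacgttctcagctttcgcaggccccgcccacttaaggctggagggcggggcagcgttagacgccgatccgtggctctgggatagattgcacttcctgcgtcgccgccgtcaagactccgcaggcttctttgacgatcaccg
Psma3: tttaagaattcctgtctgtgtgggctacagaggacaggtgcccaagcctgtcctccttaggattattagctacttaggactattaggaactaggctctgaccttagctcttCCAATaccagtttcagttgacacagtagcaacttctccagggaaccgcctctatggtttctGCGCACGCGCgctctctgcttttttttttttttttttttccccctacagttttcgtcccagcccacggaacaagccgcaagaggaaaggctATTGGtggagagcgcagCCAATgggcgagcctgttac
Psma4: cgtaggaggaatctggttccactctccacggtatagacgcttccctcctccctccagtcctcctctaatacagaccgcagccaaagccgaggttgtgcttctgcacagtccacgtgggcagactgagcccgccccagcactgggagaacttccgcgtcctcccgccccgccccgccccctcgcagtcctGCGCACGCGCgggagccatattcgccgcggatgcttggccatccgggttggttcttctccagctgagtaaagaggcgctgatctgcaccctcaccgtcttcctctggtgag

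Psma1 carried 2 CCAAT boxes and no NRF1 match, Psma3 carried 3 CCAAT boxes and 1 NRF1 match, and Psma4 carried the NRF1 match only. A CCAAT box was present in 15 of 39 member windows (38.5%) and for 41.1% of the 27025 genes with a window. The NRF1 match was present in 6 members (15.4%), namely Psma2, Psma3, Psma4, Psmc4, Psmc5 and Psmd14, and in 5.19% of all genes. The 13 tested members with a CCAAT box had a median relative log2 ratio of 0.35 and the 22 without it -0.15. For the NRF1 match the medians were 0.27 over 6 members and -0.02 over 29. Carriers of a CCAAT box included the α ring genes Psma1, Psma2, Psma3, Psma6 and Psma7, and carriers of the NRF1 match Psma2, Psma3 and Psma4. The medians are therefore not separate from the ratios of the α ring. The motifs were chosen after the ratios had been seen, a match is no proof of a site, and these values are descriptions.

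The constitutive β ring went the other way in its catalytic members. Its 7 genes held 11473 UMIs in PD100 and 11547 in PD800, or 6282 CPM (6168 to 6398) and 4474 CPM (4393 to 4556), a plain log2 ratio of -0.49 and a relative one of -0.15 (-0.19 to -0.11). The proteolytic sites are carried by Psmb5 (chymotrypsin-like), Psmb6 (caspase-like) and Psmb7 (trypsin-like). Psmb6 had 1935 CPM in PD100 and 983 CPM in PD800, a relative log2 ratio of -0.63 (-0.71 to -0.56), the lowest of the ring. Psmb5 had 1192 and 753 CPM (-0.32, -0.41 to -0.23). Psmb7 had 120 and 69.4 CPM (-0.45, -0.74 to -0.16). All 3 catalytic genes were below the median of tested genes, and their sum went from 3247 to 1806 CPM, a relative log2 ratio of -0.50 (-0.56 to -0.45).

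The 4 β genes without a proteolytic site summed to 3035 CPM in PD100 and 2668 CPM in PD800, a relative log2 ratio of 0.16 (0.10 to 0.21). They were split. Psmb4 had 469 and 592 CPM (0.68, 0.56 to 0.80) and was the highest of the ring. Psmb2 had 607 and 616 CPM (0.36, 0.25 to 0.47). Psmb1 and Psmb3 had relative log2 ratios of -0.06 (-0.16 to 0.04) and -0.10 (-0.19 to -0.01). The ratio of the catalytic genes thus differed from that of Psmb2 and Psmb4 beyond counting error.

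The window of Psmb6, chr11:70525107-70525406 (plus strand), is shown for the core of the antioxidant response element (TGACNNNGC, on either strand, in capitals), the element bound by the factors Nfe2l1 and Nfe2l2 that are known to control proteasome genes.
Psmb6: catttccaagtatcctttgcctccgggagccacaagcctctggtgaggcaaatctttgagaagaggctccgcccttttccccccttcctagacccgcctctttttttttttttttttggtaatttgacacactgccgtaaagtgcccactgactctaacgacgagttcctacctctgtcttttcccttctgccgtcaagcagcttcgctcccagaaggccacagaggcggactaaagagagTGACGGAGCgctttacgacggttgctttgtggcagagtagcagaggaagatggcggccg

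This core was found in the windows of 6 members (15.4%), which were Psmb5, Psmb6, Psmc6, Psmd9, Psmd12 and Psme4, and of 13.99% of all genes. Its 6 carriers had a median relative log2 ratio of -0.09 and the 29 tested members without it 0.17. The carriers went both ways, from -0.63 for Psmb6 to 0.67 for Psmc6. Nfe2l1 had 61 and 65 UMIs, a relative log2 ratio of -0.07 (-0.59 to 0.46), and Nfe2l2 had 87 and 72 (-0.43, -0.90 to 0.04).

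Counting the rings against each other removes the scaling of the libraries. The α ring genes held 6945 of 18418 UMIs of both rings in PD100, or 37.7% (37.0 to 38.4, exact binomial), and 12166 of 23713 UMIs in PD800, or 51.3% (50.7 to 51.9). The share was close in cells with a mitochondrial share below the library's median and in those at or above it, at 37.6% and 37.9% in PD100 and at 51.3% and 51.3% in PD800. It was 37.4% (34.0 to 40.9) in the 38 PD100 cells with endoderm markers and 37.7% in the other PD100 cells. Over 13 alternatives it ranged from 37.5% to 37.8% in PD100 and from 50.7% to 51.5% in PD800. Median-of-ratios scaling, the total without mitochondrial genes and the UMI minimum cannot change this share, so only the remaining alternatives could move it. The α share was thus higher in PD800 in both mitochondrial classes of cells.

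**Figure D2:**
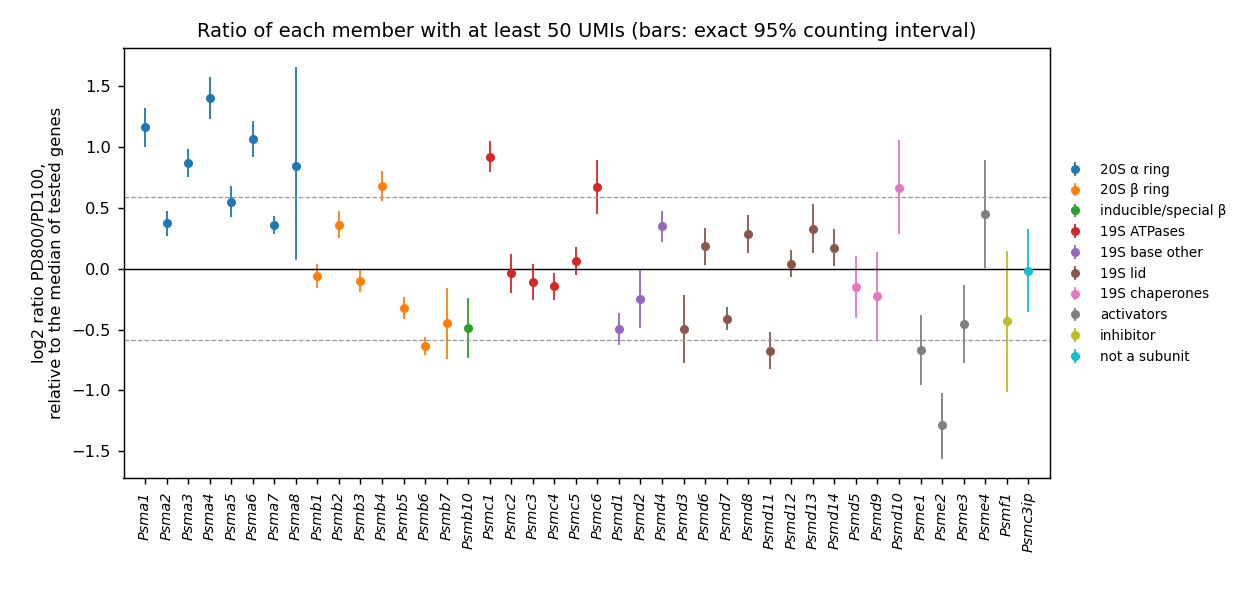
Relative log2 ratio of each of the 42 tested members with its exact 95% counting interval, in the order of the complex, with dashed lines at 1.5-fold. All 8 α ring genes lie above 0, with Psma4 highest at 1.40, and Psme2 is lowest at -1.29.

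Of the inducible and tissue-specific β genes, Psmb8, Psmb9 and Psmb11 were scarce in both libraries, while Psmb10 had more CPM per kilobase than Psmb7. Psmb8, which replaces Psmb5, had 28 UMIs in 21 PD100 cells and 0 UMIs in PD800, where 0 of 900 cells allows a share of cells with a UMI of up to 0.333%. With PD800 set to the limit of 3 counts, Psmb8 was 13.2-fold lower on the plain scale, a log2 ratio of -3.72. Its counting interval reached up to -3.33. Psmb9, which replaces Psmb6, had 12 and 3 UMIs, or 6.57 and 1.16 CPM, a plain log2 ratio of -2.50 (-4.96 to -0.61). Psmb10, which replaces Psmb7, had 170 and 96.1 CPM, a relative log2 ratio of -0.48 (-0.73 to -0.24). Psmb11, a subunit of the thymus, had 7 and 5 UMIs. Of the 28 Psmb8 UMIs in PD100, 3 lay in the 38 cells with endoderm markers, as did 0 of 12 for Psmb9 and 5 of 311 for Psmb10.

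Per kilobase of the longest coding transcript, Psmb5 had 1326 CPM and Psmb8 9.42 CPM in PD100, and Psmb7 had 103 CPM against 130 CPM for Psmb10. In PD800 Psmb7 had 59.8 and Psmb10 73.3 CPM per kilobase. The tables count tags per transcript rather than coverage, so division by length is only a second view of the same order. The inducible genes made up 351 of 6281 UMIs of the 6 catalytic genes in PD100 (5.59%, 5.03 to 6.19) and 251 of 4912 in PD800 (5.11%, 4.51 to 5.76). These intervals overlap, so a change in the share of inducible genes was not detectable at this depth, while Psmb8 alone was seen in PD100 only.

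The Psmb8 window, chr17:34197945-34198244 (plus strand), held a match to the gamma-activated site (TTCNNNGAA, the same on both strands), through which interferon gamma acts on promoters.
Psmb8: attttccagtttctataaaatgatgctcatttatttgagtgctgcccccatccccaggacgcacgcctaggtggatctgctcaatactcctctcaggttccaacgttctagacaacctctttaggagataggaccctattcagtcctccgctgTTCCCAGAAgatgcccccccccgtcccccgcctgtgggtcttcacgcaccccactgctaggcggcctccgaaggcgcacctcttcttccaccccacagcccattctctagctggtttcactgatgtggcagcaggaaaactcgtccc

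The match was found in 2 members, Psmb8 and Psmd2, and for 9.55% of all genes.

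Of the regulators, the PA28 genes were lowest. Psme1 and Psme2 encode the α and β subunits of PA28, an interferon-inducible cap without ATPase activity. Psme2 had 361 UMIs in PD100 and 165 in PD800, or 198 and 63.9 CPM, a relative log2 ratio of -1.29 (-1.56 to -1.02), the lowest of all tested members. Psme1 had 134 and 66.6 CPM (-0.67, -0.96 to -0.38). Together they went from 332 CPM (306 to 359) to 131 CPM (117 to 145), a relative log2 ratio of -1.004 (-1.20 to -0.81). Cells with endoderm markers held 21 of 361 UMIs of Psme2 and 6 of 245 of Psme1. Psme2b, an intronless copy whose reads may be shared with Psme2, had 3 and 0 UMIs.

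The nuclear cap PA28γ, encoded by Psme3, had 100.2 CPM in PD100 and 57.7 CPM in PD800, a relative log2 ratio of -0.45 (-0.78 to -0.13). Psme4, which encodes the nuclear activator PA200, had 39.97 and 43.0 CPM (0.45, 0.0084 to 0.89) and was the exception among the tested activators. Its relative value was 0.92 when cells were thinned to 1000 UMIs. Psmf1, the inhibitor PI31, had 31.8 and 18.6 CPM (-0.43, -1.01 to 0.15), an interval that includes 0, and its relative sign turned (0.21) when each cell was thinned to 1000 UMIs. All activators and the inhibitor together went from 505 CPM (473 to 539) to 250 CPM (231 to 270), a plain log2 ratio of -1.02 (-1.16 to -0.87) and a relative one of -0.67.

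The Psme1 window, chr14:55578244-55578543 (plus strand), is shown for its match to the core of the interferon-stimulated response element (GAAA, any 2 bases and GAAA, on either strand, in capitals).
Psme1: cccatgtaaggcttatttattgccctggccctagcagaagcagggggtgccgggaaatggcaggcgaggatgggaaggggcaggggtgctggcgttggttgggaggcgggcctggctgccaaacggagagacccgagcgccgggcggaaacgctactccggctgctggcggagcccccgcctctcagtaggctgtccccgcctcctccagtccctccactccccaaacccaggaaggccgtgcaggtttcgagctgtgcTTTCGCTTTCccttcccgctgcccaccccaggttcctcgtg

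This core was present in the windows of 4 members (10.3%), Psmb3, Psmd4, Psmd9 and Psme1, and of 3.99% of all genes. Psmd4 had a relative log2 ratio of 0.35, while Psmb3 (-0.10), Psmd9 (-0.22) and Psme1 (-0.67) lay below the median of tested genes. The 4 carriers had a median of -0.16 and the 31 tested members without the match 0.17. These values are descriptions of few genes and were not tested. Psme2 was not among the members with a match to any motif searched.

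The 19S particle as a whole stayed at the median of other genes. Its 20 genes, all tested, held 14003 UMIs in PD100 and 15751 in PD800, or 7668 CPM (7541 to 7796) and 6103 CPM (6008 to 6199), a plain log2 ratio of -0.33 (-0.36 to -0.30) and a relative one of 0.01. The sign of the relative value was the same in 7 of 10 alternatives, so no direction was read from it. Of the 20 genes, 3 were at least 1.5-fold higher and 1 was at least 1.5-fold lower on the relative scale, below the background of 24.5% and 20%.

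The 6 ATPases, which unfold substrates and open the gate, had a median relative log2 ratio of 0.01. Psmc1 stood above the others with 401 CPM in PD100 and 599 CPM in PD800 (0.92, 0.79 to 1.05). Psmc6 had 145 and 182 CPM (0.67, 0.45 to 0.89). Psmc4 had 702 and 501 CPM (-0.15, -0.26 to -0.03) and was the lowest. Psmc2, Psmc3 and Psmc5 ranged from -0.11 to 0.06, with intervals that include 0. The ATPases assemble in equal numbers, and their transcripts did not move together.

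Among the other base subunits, Psmd4, a receptor for ubiquitin chains, had 471 CPM in PD100 and 473 CPM in PD800, a relative log2 ratio of 0.35 (0.22 to 0.47). The scaffold Psmd1 had 555 and 311 CPM (-0.50, -0.63 to -0.36). Psmd2, the other large scaffold, had 166 and 110 CPM (-0.25, -0.48 to -0.01). Psmd4 thus lay above and both scaffolds below the median of tested genes.

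Of the 8 lid genes, 5 lay above and 3 below the median. Psmd14, the enzyme that cuts ubiquitin chains off substrates, had 354 CPM in PD100 and 315 CPM in PD800 (0.17, 0.02 to 0.32), and its plain log2 ratio of -0.17 turned to 0.17 with median-of-ratios scaling. Psmd13 had 197 and 195 CPM (0.33, 0.13 to 0.53) and was the highest of the lid. Psmd11 had 469 and 232 CPM (-0.67, -0.83 to -0.52), the lowest of the 19S genes. Psmd7, the partner of Psmd14, had 1068 and 633 CPM (-0.41, -0.51 to -0.32), and Psmd3 had 132 and 74.0 CPM (-0.49, -0.77 to -0.21). The remaining lid genes, Psmd6, Psmd8 and Psmd12, ranged from 0.04 to 0.28.

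Psmd5, Psmd9 and Psmd10 are chaperones that guide the assembly of the base and leave the finished particle. Psmd10, also known as gankyrin, had 49.8 CPM in PD100 and 62.4 CPM in PD800 (0.67, 0.29 to 1.05). Psmd9 had 72.3 and 48.8 CPM (-0.22, -0.59 to 0.14), and Psmd5 lay at -0.15 (-0.41 to 0.10), both with intervals that include 0. The non-subunit Psmc3ip had 75.6 and 58.9 CPM (-0.02, -0.36 to 0.33).

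**Figure D3:**
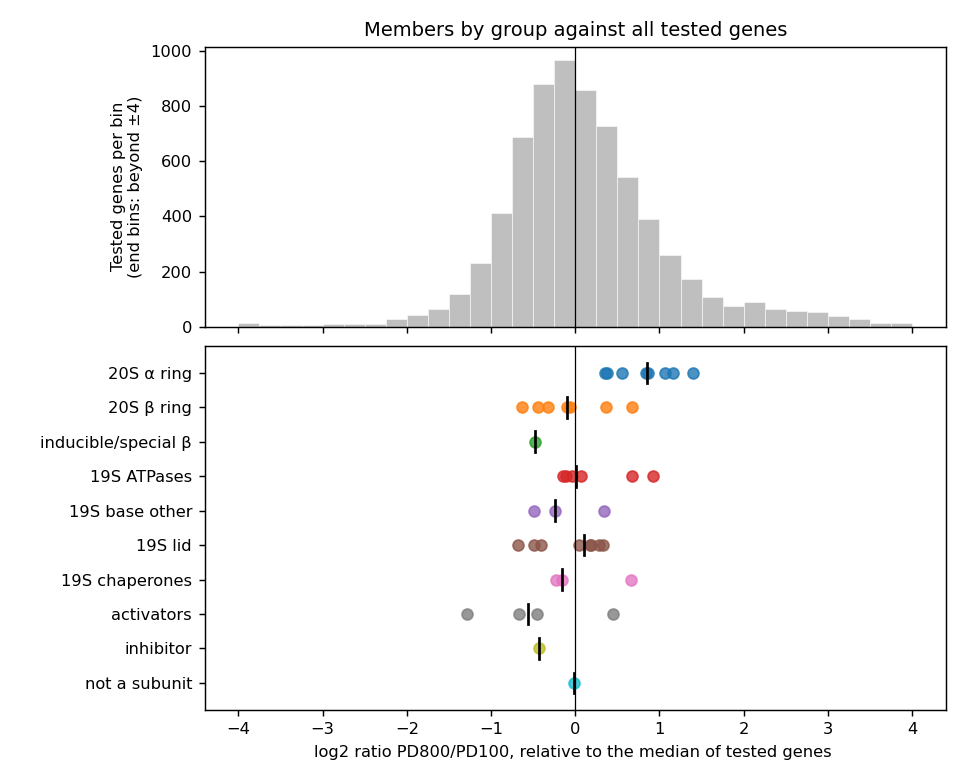
Upper panel, number of tested genes by relative log2 ratio in bins of 0.25. Lower panel, the tested members of each group on the same axis, 1 point per gene, with the group median as a black bar. The α ring points lie from 0.35 to 1.40, and all other groups of more than 1 gene have members on both sides of 0.

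The α ring was next set beside the factors that build it. Psmg1, Psmg2, Psmg3 and Psmg4 encode chaperones on which the α ring forms, and Pomp escorts the β subunits onto it. Psmg1 had 232 CPM in PD100 and 480 CPM in PD800, a relative log2 ratio of 1.39 (1.23 to 1.56). Psmg4 had 43.8 and 87.2 CPM (1.33, 0.96 to 1.72), Psmg3 54.8 and 79.4 CPM (0.88, 0.53 to 1.24), and Pomp 680 and 831 CPM (0.63, 0.53 to 0.73). Psmg2, the partner of Psmg1, had 103 and 60.1 CPM (-0.44, -0.75 to -0.12). Of the 5 genes, 4 were thus at least 1.5-fold higher on the relative scale (background 24.5%) and 1 was below the median.

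Over the wider list of 31 other genes of the pathway, 29 were tested and had a median relative log2 ratio of -0.07, with 12 above the median of tested genes. By a fold of 1.5, 7 were higher (24.1%, background 24.5%) and 3 lower (10.3%, background 20%). Shfm1, a small lid subunit also called Sem1, had 243 and 478 CPM (1.32, 1.16 to 1.48), and Uchl5, a deubiquitinase of the 19S particle, had 292 and 587 CPM (1.35, 1.21 to 1.495). Adrm1, the receptor that recruits Uchl5, had 162 and 104 CPM (-0.30, -0.54 to -0.05). Subunits and their direct partners therefore went both ways here too.

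For comparison, the 8 genes of the chaperonin, another large ring complex of the cytosol, had a median relative log2 ratio of -0.25, from -0.52 to 1.53 for Cct6a, with 3 above the median of tested genes. The 85 tested genes of cytosolic ribosomal proteins had a median of 0.48, with 65 above. These medians bracket the 0.01 of the proteasome members and lie below the 0.86 of the α ring. They are given without a test.

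Whether the differences arose in all cells or in some was examined by drawing 1000 UMIs at random from each of the 814 and 900 cells, all of which held that many. The α ring genes then summed to a median of 3 UMIs per cell (quartiles 2 and 5) in PD100 and 4 (quartiles 3 and 6) in PD800. The constitutive β ring genes summed to 6 (quartiles 4 and 8) and 4 (quartiles 3 and 6). Cells without any α ring UMI made up 4.30% of PD100 and 2.11% of PD800. All subunits and regulators together had a median of 18 UMIs in PD100 and 15 in PD800, and no cell had 0.

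**Figure D4:**
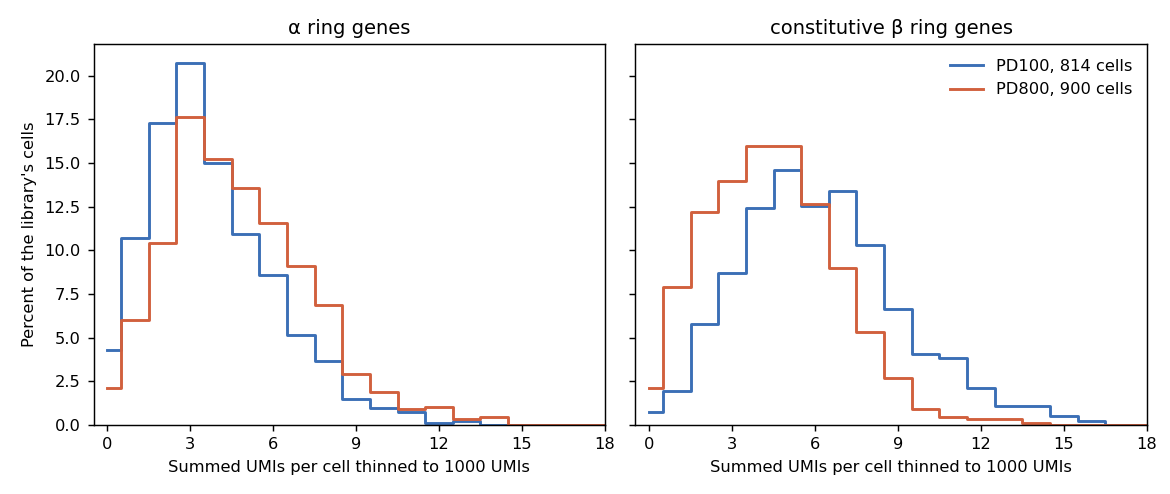
Percent of each library's cells by summed UMIs of the α ring genes (left) and of the constitutive β ring genes (right) after thinning to 1000 UMIs per cell, with 1 line per library. The PD800 line is shifted to higher sums for the α ring (mean 4.74 against 3.75) and to lower sums for the β ring (mean 4.48 against 6.22).

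Shares of cells with a UMI are given for 6 members, chosen after their values were seen. Psma4, Psmb6 and Psme2 had high or low ratios, and Psma7 had nearly the same plain level in both libraries. In the other 2, Psmf1 and Psmd14, the share and level went apart in some settings only. For Psma4 the thinned share was 16.0% (13.5 to 18.7, exact binomial) in PD100 and 33.3% (30.3 to 36.5) in PD800, and 26.8% and 58.8% without thinning. For Psmb6 it was 79.9% (76.9 to 82.6) and 57.2% (53.9 to 60.5), and 92.4% and 84.0% without thinning. For Psme2 it was 17.4% (14.9 to 20.2) and 5.44% (4.05 to 7.13), and 30.3% and 14.7% without thinning. For Psma7 it was 66.8% and 69.3%, and 84.0% and 91.8% without thinning. Psmf1 had thinned shares of 2.21% (1.32 to 3.47) and 2.33% (1.45 to 3.54), although its CPM was lower in PD800. A draw with another seed gave 2.33% and 2.22%, thinning to 2000 UMIs 5.59% and 3.84%, and no thinning 4.79% and 4.44%. The order of the Psmf1 shares thus depended on the draw. Psmd14 had a lower CPM in PD800 and thinned shares of 24.0% and 23.2%, but 41.5% and 47.2% without thinning, where PD800 cells were deeper. All cell types use the proteasome, so no cells in these libraries could give a background share for free RNA, and its part in these shares was not tested. The variance over the mean of the summed UMIs was 1.46 in PD100 and 1.37 in PD800 for all subunits and regulators.

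Across thinned cells the 20S and 19S sums were hardly related. Pearson's r was 0.03 over 814 PD100 cells and 0.03 over 900 PD800 cells, and 0.62 and 0.72 without thinning, where depth is shared by both sums. With medians of 10 and 7 UMIs a cell in PD100, such counts are too sparse to read a relation from.

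The ratios of the members were set beside the median of all tested genes of the same chromosome. On chromosome 12, where that median was 0.38 over 233 genes, Psma3, Psma6 and Psmc1 ranged from 0.87 to 1.06. On chromosome 3 (median 0.49 over 338 genes), Psma5, Psmb4 and Psmd4 ranged from 0.35 to 0.68. On chromosome 8 (median -0.53 over 394 genes), Psmb10 and Psmd7 lay at -0.48 and -0.41. Members of chromosome 11 (median -0.23 over 619 genes) were spread from -0.67 for Psmd11 to 0.45 for Psme4, and those of chromosome 14 (median -0.32 over 238 genes) from -1.29 for Psme2 to 0.67 for Psmc6. Psme1 and Psme2 lie close together on chromosome 14, at 55578123 to 55581529 on the plus strand and 55587441 to 55591113 on the minus strand (GRCm38).

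With the chromosome median taken off, all 8 α ring genes were still above it, with a median of 0.52 in place of 0.86. They ranged from 0.06 for Psma5 to 1.34 for Psma4. The constitutive β ring had a median of 0.10, with 4 of 7 above, and the activators -0.29, with 1 of 4 above. Of the catalytic β genes, Psmb6 lay at -0.41 and Psmb7 at -0.55, while Psmb5, at -0.0003, did not differ from the median of its chromosome. Psma3, Psma6 and Psmc1 thus lie on a chromosome whose median gene was also higher in PD800, and its part in their ratios was not tested.

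**Figure D5:**
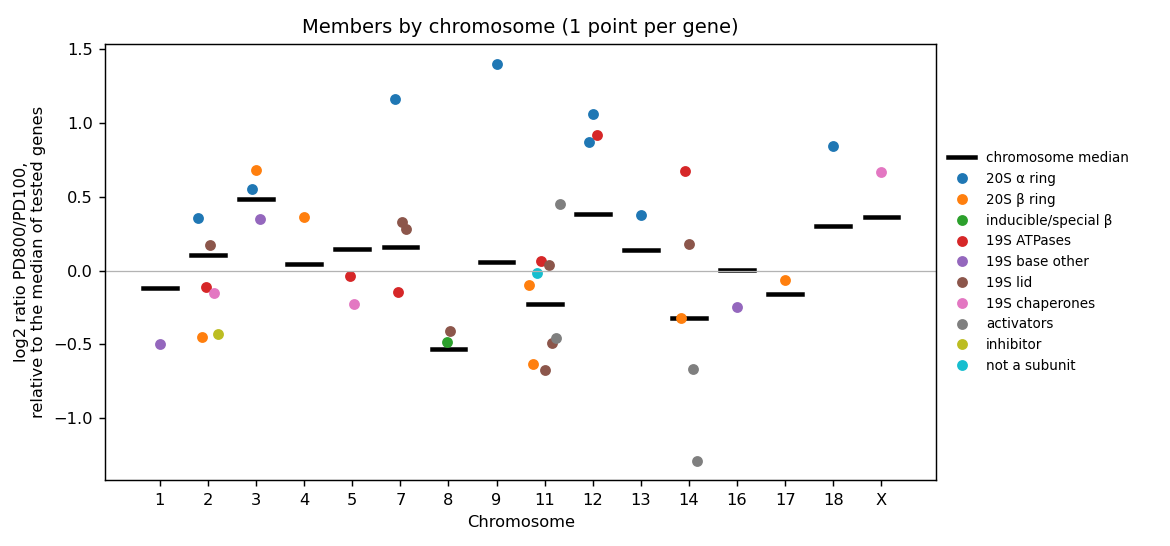
Relative log2 ratio of each tested member by chromosome, 1 point per gene coloured by group, with the median of all tested genes of that chromosome as a black bar. Members of chromosomes 3, 12 and 8 lie on the same side of 0 as their bar, while chromosomes 11 and 14 hold members on both sides.

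The members also differed in base composition. The α ring genes had a median GC content of 44.5% in their longest coding transcripts and the constitutive β ring genes 52.2%. Over the 42 tested members Spearman's rho of GC content and relative log2 ratio was -0.53, and over 6536 tested genes with a transcript it was -0.23. Both are descriptions across genes, which share libraries and are not independent replicates. Transcript length showed rho = -0.08 over the members. The part of base composition in the ratios was not tested.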

How the data were processed

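Single-cell RNA-seq of 2 libraries was analysed. The authors mapped inDrops reads to a GRCm38 transcriptome with the inDrops pipeline and deposited raw counts (UMIs per barcode and gene). The annotation release and strand setting are not given in the sources used here. Per the labels, groups were PD100 and PD800, each with 1 library. No per-sample value column was left unmapped. Barcodes with fewer than 1000 UMIs or over 20% mitochondrial UMIs were left out (477 of 1291 in PD100, 766 of 1666 in PD800). The cells kept were more than the methods of the study give for this filter.

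Counts were summed over cells and divided by the library total. Exact 95% intervals were Poisson for sums, binomial (Clopper-Pearson) for shares and conditional on the summed counts for ratios. These cover counting error only, since cells are not replicates. A library with 0 counts was set to 3 counts. Scrublet at an expected rate of 5% called 14 PD100 and 8 PD800 doublets, which were kept in the reported values. Names and positions were matched in GENCODE M21 (GRCm38), where all 46 members and 6770 of 6984 tested genes had a position. Promoter windows came from RefSeq (GRCm38.p6).

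Members and lists were chosen with earlier results of these data known. Values were printed for the catalytic and inducible β genes, Psmd4, Psmd14, activators, the inhibitor, and the highest and lowest member of each group. The filter, scaling, thinning and UMI minimum were varied in 12 alternatives, and 1 more was added. The other members, the motifs and the chromosome and composition values were described after their values had been seen. Some items are not reported here. Paaf1, on the pathway list, had no column under that symbol. The ratio and interval steps were tested on simulated counts. Python 3.11.15, NumPy 2.4.6, SciPy 1.17.1, pandas 2.3.3, Scanpy 1.11.5 and matplotlib 3.10.9 were used.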

Additional observations from a re-analysis of the deposited data

Results flagged for a closer look

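Apart from the alternative without a cell filter, the barcodes left out by this filter were not used in the comparisons of the report. The α ring genes differed among them as well. This drew attention because the signal lies in barcodes outside the reported values and above the level of the earlier time point. The left-out barcodes come from the same libraries and are not independent of the reported values. They held 912 of 246800 UMIs in 477 PD100 barcodes and 2160 of 458381 UMIs in 766 PD800 barcodes, or 3695 CPM (3459 to 3943) and 4712 CPM (4516 to 4915), a plain log2 ratio of 0.35 (0.24 to 0.46). The constitutive β ring genes had a plain log2 ratio of -0.63 (-0.72 to -0.53) in the same barcodes. The α share of both rings was 36.3% (34.4 to 38.2) and 52.9% (51.4 to 54.5). Free RNA and shallow cells cannot be told apart in these barcodes.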

How the results depend on the processing

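With median-of-ratios scaling the plain log2 ratio went from -0.15 to 0.19 for the 20S core, from -0.33 to 0.012 for the 19S particle, from -1.02 to -0.67 for activators and inhibitor, from -0.33 to 0.011 for the median member, and from -0.17 to 0.17 for Psmd14, and members at least 1.5-fold lower went from 13 to 4. This scaling takes off the median of tested genes, so relative values keep their size. Without mitochondrial genes in the total, the 20S and 19S values were -0.10 and -0.28. UMIs of all subunits and regulators per cell were 37 and 31 when cells were thinned to 2000 UMIs and 39 and 42.5 without thinning, in place of 18 and 15. PD800 was higher in the last of these, where its median depth per cell was also higher. Thinning each cell to 1000 UMIs moved the plain log2 ratios of some low genes further, from -3.72 to -2.02 for Psmb8 (both with PD800 set to 3 counts), from -0.77 to -0.081 for Psmf1 and from 0.11 to 0.63 for Psme4. Relative log2 ratios over 10 alternatives ranged from 0.62 to 0.66 for the α ring, from -0.18 to -0.15 for the constitutive β ring, from -0.54 to -0.50 for the catalytic β genes and from -1.11 to -0.95 for PA28. Of 260 values of named members under alternatives, 233 stayed within the reported counting interval. Leaving out barcodes shared by the libraries was chosen after seeing the data. No paired analysis was possible because each time point had 1 library. Depth limits Psmb8, Psmb9, Psmb11 and Psme2b most.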

Other observations

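Genes of antigen presentation and interferon response, which work with the inducible proteasome, were examined after the values of Psmb8 and Psme2 had been seen. Bst2, an interferon-induced membrane protein, went from 36 UMIs in PD100 to 4 in PD800 (relative log2 ratio -3.33). Isg15, a ubiquitin-like protein, had 38 and 11 UMIs (-1.95), and the peptide transporter genes Tap1 and Tap2 had 24 and 12 UMIs (-1.16) and 8 and 1 UMIs (-3.16). Tapbp, which loads peptides onto class I molecules, had 56 and 28 UMIs (-1.16). B2m, with 56 and 59 UMIs (-0.08), and H2-D1, with 92 and 123 (0.26), did not go with them. These counts are low, come from 1 library each and were not tested.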
